A study of Mus musculus with 8 samples.

Results

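The fibroblast growth factor (FGF) ligands and receptors described here are 8 genes chosen by name, 5 ligands (Fgf18, Fgf5, Fgf1, Fgf2 and Fgf22) and 3 receptors (Fgfr1, Fgfr2 and Fgfr3), out of 46078 genes in the deposited count table. All 8 were in the table, and 7 passed the filter on low counts, Fgf22 being the exception. The cells were Lgr5-traced cells sorted from mouse epidermis after skin injury. All mice carried the strain Lg5-egfp-ires-creert2/R26-tdTomato, spelled as in the labels, in which the Lgr5 locus drives a green reporter and an inducible Cre, and a red reporter at R26 marks cells that had Cre activity and their progeny. The 4 Treg-sufficient libraries had regulatory T cells present and the 4 Treg-depleted libraries lacked them, and each condition had 2 libraries in experiment 1 (replicates 1 and 2) and 2 in experiment 2 (replicates 3 and 4). The sources used here do not give the means of depletion, the type of injury, the time after it or the age of the mice. Whether each replicate is another animal is not stated either, so p-values measure only the spread between these samples, which may be technical for some of them.

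FGF ligands bind receptor tyrosine kinases together with heparan sulfate chains on the cell surface. The bound receptors signal through docking adaptors, RAS and the ERK kinases to ETS-family transcription factors, with Sprouty proteins and the phosphatase encoded by Dusp6 as feedback inhibitors. In the hair follicle, Fgf18 from the inner layer of the bulge is known for keeping stem cells at rest, Fgf5 for ending the growth phase (anagen) and starting regression (catagen), and Fgf7 and Fgf10 from the dermal papilla for activating the epithelium through Fgfr2. Fgf1 and Fgf2 lack a classical secretion signal.

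Library totals over genes ran from 22330729 to 29975347 counts. Markers of follicle stem cells (6 genes, among them Lgr5, Cd34 and Krt15) summed to 5028 to 9709 CPM (counts scaled to the size of each library) over the 8 libraries, and Krt5, Krt14 and Trp63 to 10480 to 22880 CPM, so defining markers of the labelled cell type were present in every library. Genes listed as markers of other cell types had counts as well. Melanocyte markers summed to 19.4 to 52.3 CPM in experiment 1 and 113 to 363 CPM in experiment 2. The sum of 7 fibroblast markers was 36.8 to 104 CPM in Treg-sufficient and 19.1 to 67.1 CPM in Treg-depleted libraries, and that of 6 dermal papilla markers, mostly Wif1, 23.0 to 43.5 and 41.6 to 68.1 CPM. Leukocyte markers summed to 2.41 to 5.36 CPM, mostly Cd68 (mean 3.17 CPM), with Cd3e at a mean of 0.0084 CPM. No marker of any list was at 0 in all libraries. However, Cd3e and Flg, a marker of differentiated epidermis, were above 0 only in Treg-sufficient replicate 4, at 0.067 and 0.033 CPM. A value above 0 thus does not by itself show that such cells were present. Xist, a transcript of female cells, stood at 2697 CPM in Treg-sufficient replicate 2, at 76.0 CPM in Treg-depleted replicate 2 and at 0.970 to 2.16 CPM in the other 6 libraries, so results were also computed without those 2 libraries. Treg-sufficient replicates 1 and 2 thus came from different animals or pools, while the origin of the other libraries is not settled by Xist. In such bulk samples, fewer cells of a type and less RNA per cell cannot be told apart.

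Per kilobase of annotated exon, the receptors stood above the ligands on average. The order of the mean level over the 8 libraries, as RPKM (CPM per kilobase of exon), was Fgfr1 60.7 ± 14.6 (SD, n = 8), Fgfr2 47.3 ± 11.2, Fgfr3 35.3 ± 5.07, Fgf18 16.0 ± 15.3, Fgf1 10.9 ± 9.31, Fgf2 2.63 ± 0.995, Fgf5 0.172 ± 0.208 and Fgf22 0.0203 ± 0.0261. Among neighbours in this order, the ranges over libraries overlapped for every pair except Fgf2 (1.24 to 4.46 RPKM) and Fgf5 (0 to 0.562 RPKM). The step from Fgfr3 (23.7 to 40.3 RPKM) to Fgf18 (1.41 to 41.1 RPKM) was thus not beyond their spread. Among the 5 ligands the leading gene changed from library to library. Fgf18 made up 13.8 to 77.7% of the ligands' summed RPKM and Fgf1 20.0 to 80.5%, and Fgf18 led in Treg-sufficient replicates 1 and 3 and Treg-depleted replicates 2 and 3, Fgf1 in the other 4. These levels depend on the annotated exons, because a gene of which the cells use a short isoform gets too low a value per kilobase.

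**Figure D1:**
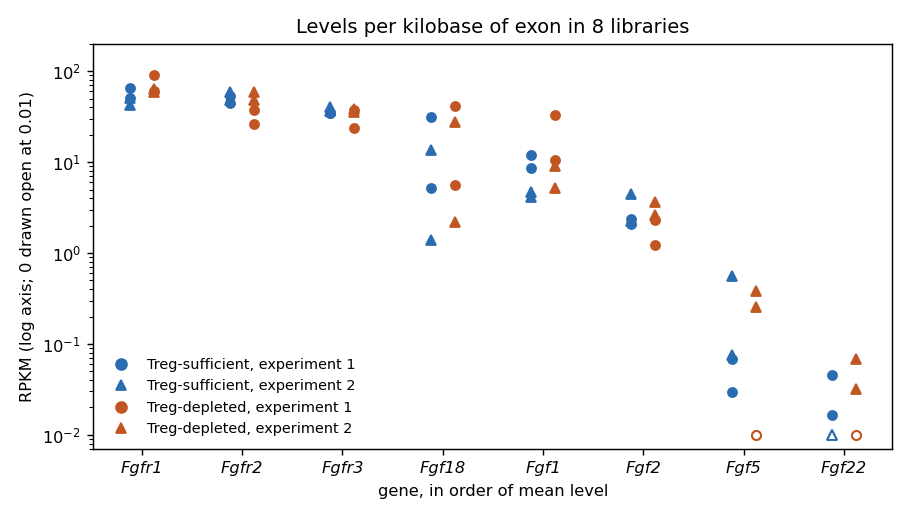
Levels of the 8 genes as RPKM (log axis), ordered by mean level, with a point per library; colour gives the condition, shape the experiment, and open points stand for 0 counts. The 3 receptors lie between 23.7 and 91.3 RPKM, while Fgf18 spans 1.41 to 41.1 RPKM.

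Fgf18, the ligand that holds the resting phase, varied most between libraries among the 6 members with a mean of at least 1 CPM, on the log2(CPM + 0.5) scale, and it did so within each condition and experiment. The gene lies on chromosome 11, 33117430 to 33147400, minus strand (GRCm38, GENCODE M21, as for the other genes below; ENSMUSG00000057967). Its level was 37.1, 6.13, 16.1 and 1.67 CPM in Treg-sufficient replicates 1 to 4, from 1013, 178, 426 and 50 counts. In Treg-depleted replicates 1 to 4 it was 6.68, 48.8, 32.8 and 2.63 CPM, from 196, 1032, 852 and 74 counts. Each condition thus held a high and a low library in each experiment, and the ranges of the conditions overlapped almost wholly. The higher library exceeded the lower by 6.04 and 9.64 times in the Treg-sufficient pairs of experiments 1 and 2 and by 7.31 and 12.5 times in the Treg-depleted pairs. The mean gap over these 4 pairs was 2.91 log2 units, on the log2(CPM + 0.5) scale. Among 14160 tested genes with a mean of at least 1 CPM the median gap was 0.274 log2 units, and 1 gene, Xist, had a larger gap than Fgf18. By the same measure Fgf1 had a gap of 0.76 log2 units (larger than that of 94.95% of those genes), Fgf2 0.61, Fgfr2 0.35, Fgfr1 0.33 and Fgfr3 0.24, so the receptors were close to the median gene.

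**Figure D2:**
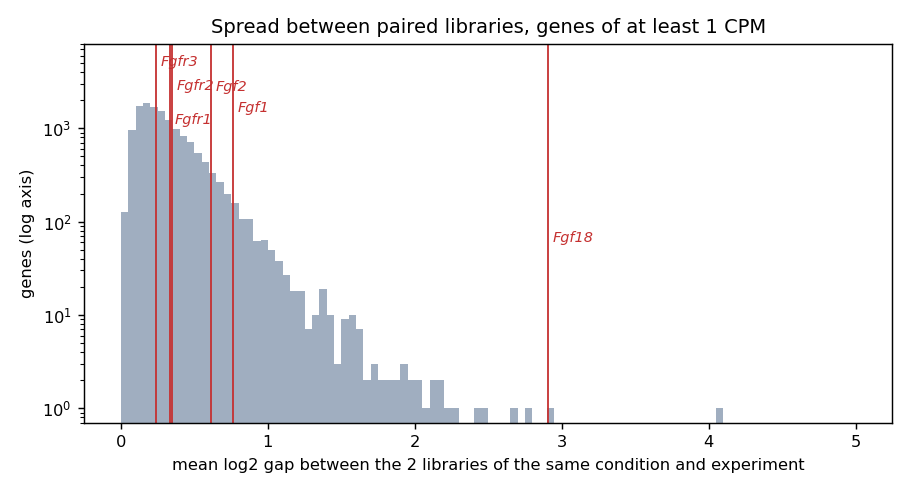
Histogram of the mean log2 gap between the 2 libraries of the same condition and experiment for 14160 genes of at least 1 CPM (number of genes on a log axis), with red lines at 6 members. Fgf18 lies at 2.91, far beyond the median of 0.274, while the receptors lie between 0.24 and 0.35.

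Other measures moved with Fgf18 inside these pairs. In 4 of 4 pairs the library with more Fgf18 also had the higher sum of Krt6a, Krt6b and Krt75, keratins of the inner bulge and the companion layer, the higher level of the bulge marker Cd34 and the smaller number of genes with counts. The keratin sum was 818, 676, 366 and 262 CPM in Treg-sufficient replicates 1 to 4 and 208, 1431, 168 and 106 CPM in Treg-depleted replicates 1 to 4. Cd34 was at 282, 244, 86.9 and 74.6 CPM and at 434, 596, 274 and 76.2 CPM in the same order. Across pairs the keratin sum did not order the libraries as Fgf18 did, since Treg-depleted replicate 3 had less of the keratins than Treg-sufficient replicate 4 and far more Fgf18. The numbers of genes with counts were 21720, 22700, 19593 and 22789 in Treg-sufficient and 22896, 18605, 22670 and 23062 in Treg-depleted libraries. They were not adjusted for depth, and in every pair the library with more Fgf18 had the lower total. The totals were 27263384, 28850186, 26608260 and 29975347 counts in Treg-sufficient and 29623892, 22330729, 24775026 and 27700542 counts in Treg-depleted replicates 1 to 4. How many genes move with Fgf18 in every pair was not computed. The keratin sum was mostly Krt6a (mean 437 CPM, against 37.4 for Krt6b and 29.6 for Krt75), and Krt75 was higher with Fgf18 in 3 of the 4 pairs. Of the other stem cell markers, Krt15 was higher with Fgf18 in 3 of 4 pairs, Sox9, Lhx2 and Lgr6 in 2 and Lgr5 in 1. The measures named first were picked after their values were seen, and their part in the spread of Fgf18 was not tested.

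Between conditions Fgf18 did not pass the test. The mean was 15.2 ± 15.7 CPM (SD, n = 4) in Treg-sufficient and 22.7 ± 21.9 CPM (SD, n = 4) in Treg-depleted libraries, a log2 fold change of 0.67 with a standard error (SE) of 0.96 (adjusted p = 0.897 by edgeR's quasi-likelihood F-test, with p-values adjusted over all 17748 genes tested by the Benjamini-Hochberg method). Its sign turned on single libraries, since the value was -0.34 without Treg-depleted replicate 3 and -0.06 without both libraries with Xist reads, against 1.45 without Treg-sufficient replicate 1. Between experiments the log2 fold change, experiment 2 over experiment 1, was -0.96 (SE 0.97, adjusted p = 0.646), from -2.003 without Treg-depleted replicate 3 to -0.21 without Treg-sufficient replicate 1.

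The stretches just upstream of the annotated starts of Fgf18 and Fgf5 are printed because these ligands are known for different steps of the hair cycle, rest and regression. They are 250 bases each from RefSeq (GRCm38.p6), 5′ to 3′ on the gene's strand, chr11:33147401-33147650 (minus strand) and chr5:98253934-98254183 (plus strand). Capitals mark matches to the GC box GGGCGG on either strand. Of the 8 genes, 6 had an entry in the promoter table.
Fgf18: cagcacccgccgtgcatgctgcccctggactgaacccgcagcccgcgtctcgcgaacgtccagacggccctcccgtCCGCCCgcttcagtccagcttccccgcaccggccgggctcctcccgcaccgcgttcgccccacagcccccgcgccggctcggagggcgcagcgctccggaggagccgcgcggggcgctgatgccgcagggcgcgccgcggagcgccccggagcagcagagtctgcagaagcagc
Fgf5: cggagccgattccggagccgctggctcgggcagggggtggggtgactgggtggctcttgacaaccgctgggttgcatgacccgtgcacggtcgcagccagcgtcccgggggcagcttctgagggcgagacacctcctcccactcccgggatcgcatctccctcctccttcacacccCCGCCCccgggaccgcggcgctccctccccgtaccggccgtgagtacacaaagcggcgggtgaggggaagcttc
Both are rich in G and C, 77.2% for Fgf18 and 70.8% for Fgf5, against a median of 52.4% over 32851 upstream stretches of the same length. Each holds 1 GC box match, which 32.7% of all stretches have. Neither has the forkhead letters TGTTTAC (3.17% of all stretches) or the TATA box letters TATAAA (12.4%) on either strand. A match describes letters and is not a binding site.

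The genes with the pattern over the 8 libraries most like that of Fgf18 were Sncg, which encodes a synuclein, Nell1, and Nog, which encodes Noggin, an inhibitor of bone morphogenetic proteins. Likeness was the root mean square difference between log2(CPM + 0.5) values centred on each gene's mean, 0.34 log2 units for Sncg, 0.70 for Nell1 and 0.73 for Nog. Sncg stood at 23.0, 4.44, 7.19 and 1.14 CPM in Treg-sufficient replicates 1 to 4 and at 7.05, 47.4, 25.1 and 1.70 CPM in Treg-depleted replicates 1 to 4. It was highest in the same library as Fgf18, Treg-depleted replicate 2, and lowest in the same library, Treg-sufficient replicate 4. All these points share the library and its depth. Sncg was picked for its likeness over these same 8 libraries, so the shared highest and lowest libraries largely follow from that choice.

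**Figure D3:**
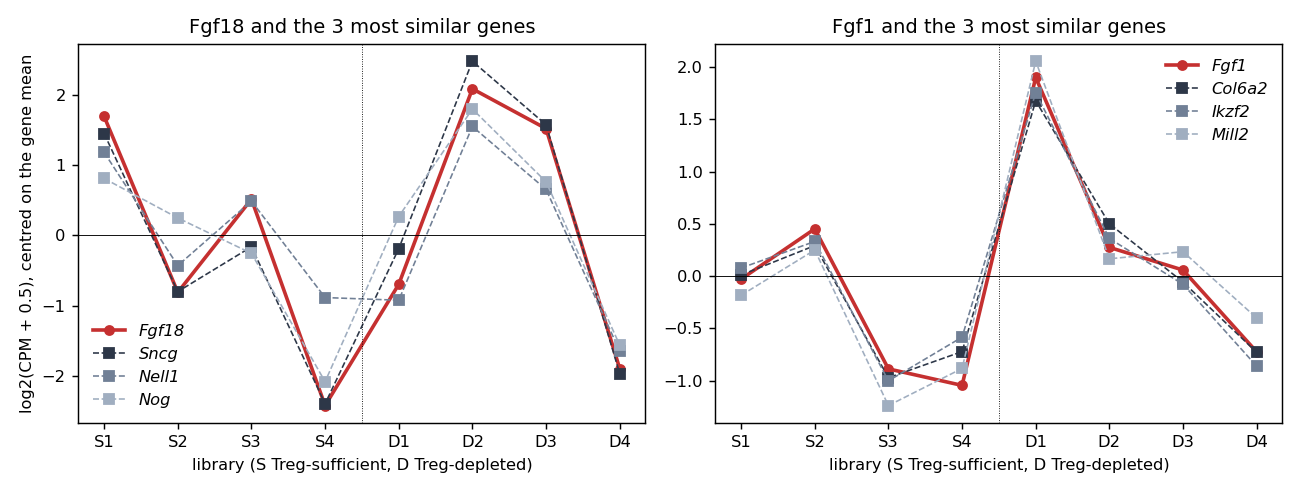
Levels of Fgf18 (left) and Fgf1 (right) with their 3 most similar genes, as log2(CPM + 0.5) centred on each gene's mean, for Treg-sufficient (S1 to S4) and Treg-depleted (D1 to D4) libraries; lines only join the points of a gene. Fgf18 and Sncg are both highest in D2 and lowest in S4, and Fgf1 and its 3 neighbours are all highest in D1. The neighbours were picked for likeness over these same libraries, so such agreement largely follows from the choice.

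Fgf5, the catagen-inducing ligand (chromosome 5, 98254184 to 98277030, plus strand; ENSMUSG00000029337), was barely detected, and mainly in experiment 2. It had 2, 5, 5 and 42 counts in Treg-sufficient and 0, 0, 25 and 18 counts in Treg-depleted replicates 1 to 4, and at most 1.40 CPM. The highest library, Treg-sufficient replicate 4, held most of the counts of its group, and the conditions overlapped. Between conditions the log2 fold change was -0.86 (SE 1.00, adjusted p = 0.853, edgeR), from -1.64 without Treg-sufficient replicate 3 to -0.45 without Treg-sufficient replicate 4. All 4 libraries of experiment 2 lay above the 4 of experiment 1, and for 12.7% of all genes tested the experiments did not overlap, in either direction. The nearest libraries, Treg-sufficient replicates 3 and 2, had 5 counts each (0.189 and 0.172 CPM), so this separation rests on the scaling of the libraries. Only libraries of experiment 2 brought Fgf5 past the filter on low counts, so its log2 fold change of 3.78 (SE 1.06) for experiment 2 over experiment 1 is given as a description. The melanocyte markers given above were also higher in experiment 2, and their part in this was not tested. In experiment 1 the Treg-depleted libraries had 0 counts against 7 in the Treg-sufficient libraries, 2.09-fold lower if the 0 is set to a floor of 3 counts. This value leaves out the error of the 7 counts and is no lower bound. The difference did not pass the adjusted threshold in edgeR. With RLE factors, an alternative scaling of the libraries, edgeR gave an unadjusted p of 0.0594 and an adjusted p of 0.506. DESeq2 gave an unadjusted p of 0.0402 and no adjusted one.

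Fgf1, a ligand known to bind all FGF receptors (chromosome 18, 38838673 to 38929472, minus strand; ENSMUSG00000036585), had a higher mean in Treg-depleted libraries without passing the adjusted test. Its level was 46.7, 65.4, 25.5 and 22.8 CPM in Treg-sufficient and 179, 57.8, 49.6 and 28.7 CPM in Treg-depleted replicates 1 to 4. Treg-depleted replicate 1 stood far above the other 7 libraries, and the remaining Treg-depleted libraries lay within the range of the Treg-sufficient ones. In experiment 2 both Treg-depleted libraries exceeded both Treg-sufficient ones, whereas in experiment 1 Treg-sufficient replicate 2 lay above Treg-depleted replicate 2. Within experiment 2 the conditions did not overlap, in either direction, for 32.6% of all genes tested. The means were 40.1 ± 19.9 and 78.8 ± 68.1 CPM (SD, n = 4 each), a difference of 0.89 log2 units (SE 0.33, unadjusted p = 0.0246, adjusted p = 0.701, edgeR), which was 0.44 without Treg-depleted replicate 1.

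Within experiment 1 the log2 fold change of Fgf1 was 1.08 (SE 0.48, adjusted p = 0.483), and 1 library decided it: without Treg-depleted replicate 1 it was 0.04. Without Treg-depleted replicate 2, a library with Xist reads, it was 1.67 (adjusted p = 0.0400), and without both libraries with Xist reads 1.92 (adjusted p = 0.0459). Both values leave Treg-depleted replicate 1, the library at 179 CPM, as the only one of its group, and without both the comparison is 1 library against 1. Here and in every fit below that leaves a single library in a group, that library is assumed to vary like the other groups. Within experiment 2 it was 0.69 (SE 0.48, unadjusted p = 0.186, adjusted p = 1), and 0.25 without Treg-depleted replicate 3. Fgf1 also differed in level between experiments, with a log2 fold change of -1.41 for experiment 2 over experiment 1 (SE 0.33, unadjusted p = 0.0023, adjusted p = 0.0663 in edgeR and 0.0007 in DESeq2). The genes most like it in pattern were Col6a2 (0.18 log2 units), which encodes a collagen VI chain, Ikzf2 (0.20), which encodes the transcription factor Helios, and Mill2 (0.22), a class I-like gene. Col6a2 stood at 47.3, 57.6, 23.7 and 28.2 CPM in Treg-sufficient and at 151, 66.6, 45.1 and 28.1 CPM in Treg-depleted replicates 1 to 4, highest in the same library as Fgf1. Col6a2 was picked for this likeness, so the shared highest library is no separate result.

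Fgf2, basic FGF (chromosome 3, 37348346 to 37410108, plus strand; ENSMUSG00000037225), was low and showed no order by condition. It was at 14.3, 16.0, 30.2 and 15.1 CPM in Treg-sufficient and at 15.8, 8.42, 18.0 and 24.8 CPM in Treg-depleted replicates 1 to 4. The highest value was Treg-sufficient replicate 3 and the lowest Treg-depleted replicate 2, with the other libraries in between and the conditions overlapping. The log2 fold change was -0.20 (SE 0.26, adjusted p = 0.885, edgeR) between conditions and 0.70 (SE 0.27, unadjusted p = 0.0272, adjusted p = 0.175) for experiment 2 over experiment 1. Exons of Fgf2 share 640 bases with Nudt6, an antisense gene on the opposite strand, and the sources used here do not give the strand setting of the counting, so reads of these genes may not be told apart. Me1, which encodes malic enzyme, was most like Fgf2 (0.15 log2 units), with 74.1 CPM in Treg-sufficient replicate 3 and 20.8 CPM in Treg-depleted replicate 2, its highest and lowest libraries. Me1 was picked for this likeness, so sharing these libraries with Fgf2 is no separate result.

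Fgf22 (chromosome 10, 79755076 to 79758596, plus strand; ENSMUSG00000020327), described in other work in the inner root sheath, was at the limit of detection and was not tested. It had 1, 3, 0 and 0 counts in Treg-sufficient and 0, 0, 4 and 2 counts in Treg-depleted replicates 1 to 4. Counts fell in experiment 1 for Treg-sufficient and in experiment 2 for Treg-depleted libraries, 10 counts in all, at which no difference could be detected. Inner root sheath markers (5 genes) summed to 37.9 to 342 CPM in Treg-sufficient and 31.6 to 154 CPM in Treg-depleted libraries.

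**Figure D4:**
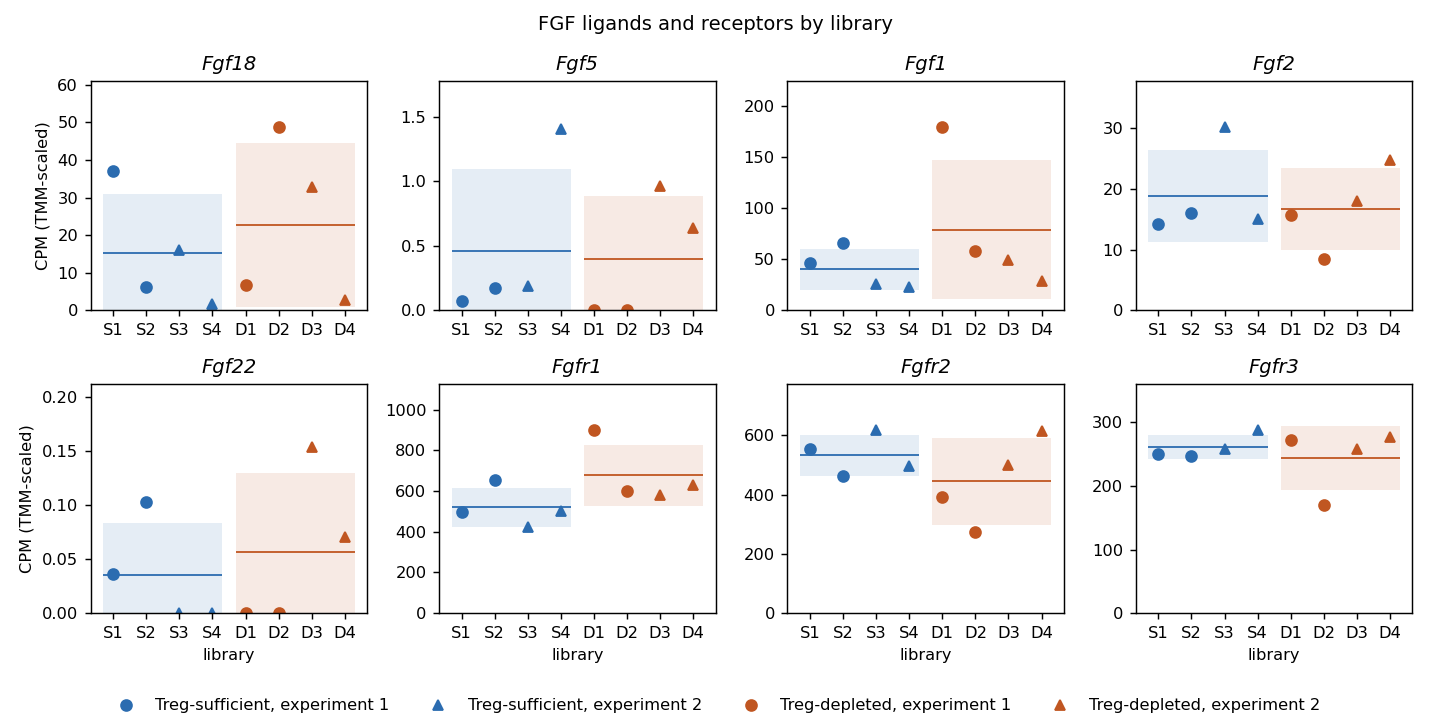
CPM of each of the 8 genes in Treg-sufficient (S1 to S4) and Treg-depleted (D1 to D4) libraries; circles are experiment 1, triangles experiment 2, lines the mean and shaded bands 1 SD of each condition (n = 4). Fgf18 has a high and a low library in each pair, and Fgfr1 and Fgf1 are highest in D1, at 902 and 179 CPM.

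Fgfr1 (chromosome 8, 25513654 to 25575718, plus strand; ENSMUSG00000031565), the receptor with the highest mean per kilobase, had a modestly higher mean in Treg-depleted libraries. It was at 499, 655, 425 and 503 CPM in Treg-sufficient and at 902, 599, 583 and 628 CPM in Treg-depleted replicates 1 to 4. Treg-depleted replicate 1 was the highest library, and the conditions overlapped only through Treg-sufficient replicate 2, whose level exceeded the other 3 Treg-depleted libraries. The means were 520 ± 96.9 and 678 ± 150 CPM (SD, n = 4 each), with a log2 fold change of 0.38 (SE 0.15, unadjusted p = 0.0353, adjusted p = 0.708, edgeR). The value was 0.38 (SE 0.23) within experiment 1 and 0.38 (SE 0.23) within experiment 2, with adjusted p = 0.661 and 1. Within experiment 1 it was 0.05 without Treg-depleted replicate 1 and 0.84 without both libraries with Xist reads. Klf11, which encodes a Kruppel-like transcription factor, was most like it (0.079 log2 units), followed by Ppm1f and Slc31a2.

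Fgfr2 (chromosome 7, minus strand; ENSMUSG00000030849), the receptor of the dermal papilla ligands, had lower levels in Treg-depleted libraries in experiment 1 and near-equal means in experiment 2, without passing the adjusted test. It was at 554, 461, 619 and 496 CPM in Treg-sufficient and at 391, 274, 499 and 614 CPM in Treg-depleted replicates 1 to 4. In experiment 1 both Treg-depleted libraries lay below both Treg-sufficient ones. For 37% of all genes tested the conditions did not overlap there, in either direction. In experiment 2 the conditions of Fgfr2 overlapped. The log2 fold change was -0.31 (SE 0.18, adjusted p = 0.743, edgeR) over both experiments and -0.61 (SE 0.22, unadjusted p = 0.0247, adjusted p = 0.355) within experiment 1, -0.39 without Treg-depleted replicate 2 and -0.52 without both libraries with Xist reads. Within experiment 2 it was -0.00 (SE 0.22), and the difference between the experiments' effects did not pass the test (0.61, SE 0.31, unadjusted p = 0.0874, adjusted p = 0.966). Experiment 2 over experiment 1 gave 0.44 (SE 0.18, unadjusted p = 0.0389, adjusted p = 0.209), and 0.25 without both libraries with Xist reads. The gene starts at 130162451 and ends at 133123350 in GENCODE M21 but at 130266808 in RefSeq, and the longer model shares 314 exon bases with Ctbp2 on the same strand, so its length and count depend on the annotation used. Nipsnap1 was most like it (0.071 log2 units), followed by Ccdc74a and Irak1bp1.

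Fgfr3 (chromosome 5, 33721674 to 33737068, plus strand; ENSMUSG00000054252) was the most even member. It was at 251, 247, 259 and 289 CPM in Treg-sufficient and at 272, 170, 258 and 277 CPM in Treg-depleted replicates 1 to 4. Treg-depleted replicate 2 was the lowest library, the other 7 lay close together and the conditions overlapped. The log2 fold change was -0.10 (SE 0.15, adjusted p = 0.897, edgeR), and 0.01 without both libraries with Xist reads. Ift122, which encodes a protein of ciliary transport, was most like it (0.057 log2 units), and Fem1c was also close (0.063). A transcript on the opposite strand, G630022F23Rik, shares 998 exon bases with it.

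The balance between receptors was computed after the levels had been seen and therefore has no test. The ratio of Fgfr1 to Fgfr2 per kilobase was 0.942, 1.49, 0.718 and 1.06 in Treg-sufficient and 2.41, 2.29, 1.22 and 1.07 in Treg-depleted replicates 1 to 4. The ratio of Fgfr1 to Fgfr3 was 1.44, 1.93, 1.19 and 1.26 and then 2.40, 2.56, 1.64 and 1.64. The ratio of Fgfr2 to Fgfr3 was 1.53, 1.30, 1.66 and 1.19 and then 0.996, 1.12, 1.34 and 1.53. For the first and the second of these ratios, both Treg-depleted libraries of each experiment lay above both Treg-sufficient ones, by as little as 1.07 against 1.06 for Fgfr1 to Fgfr2 in experiment 2. For Fgfr2 to Fgfr3 they lay below in experiment 1 and the conditions overlapped in experiment 2. Over all 8 libraries the conditions overlapped in the 3 ratios. How often such ratios separate among all genes was not computed. Fgfr1 made up 30.9 to 54.7% of the 3 receptors' summed RPKM, Fgfr2 22.6 to 43.1% and Fgfr3 21.4 to 29.0%.

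Counted together, 0 of 7 tested members passed the adjusted threshold of 0.05 between conditions in edgeR, where 0% of all genes did. At an unadjusted p under 0.05, 2 members were called, Fgf1 and Fgfr1, both higher in Treg-depleted libraries, against 6.99% of all genes (1240 genes, or 763 with a replicate block), 3.07% higher and 3.92% lower. That count was 0 with a replicate block, with no experiment term and without Treg-sufficient or Treg-depleted replicate 1. DESeq2 called 0 members by adjusted p (0.49% of all genes), with Fgf5 given none, and 2 at an unadjusted p under 0.05 (8.76%). Within experiment 1, 0 of 7 passed in edgeR (0.687% of all genes), with 1 at an unadjusted p under 0.05 (10.6% of all genes), and DESeq2 called 0 (4.07%), with 3 unadjusted (11.5%). Within experiment 2, 0 of 7 passed (0% of all genes), with 0 unadjusted (1.71%), and DESeq2 called 0 (0.0169%), with 0 unadjusted (2.21%). For the difference between the experiments' effects, 0 of 7 passed (0% of all genes), with 0 unadjusted (5.47%), and DESeq2 again called 0 (1.02%), with 0 unadjusted (6.17%). Between experiments 0 of 7 passed in edgeR (1.56% of all genes), with 4 unadjusted (21.1%), while DESeq2 called 2 (12.2%), Fgf5 and Fgf1, with 4 unadjusted (23.4%), counts in which Fgf5 is a description only. No member had conditions that did not overlap over 4 against 4 libraries (2.36% of all genes). Within experiment 1 this held for Fgf5 and Fgfr2 (37% of all genes) and within experiment 2 for Fgfr1 and Fgf1 (32.6%). In both experiments and the same direction it held for 0 members (6.88% of all genes). Beside the higher means of Fgf1 and Fgfr1, the sum of the 6 dermal papilla markers was 41.6 to 68.1 CPM in Treg-depleted and 23.0 to 43.5 CPM in Treg-sufficient libraries. Wif1 carried that sum, and of the 6 markers 2 had a positive and 4 a negative fold change, with a median log2 fold change of -0.13. The sum of the 7 fibroblast markers ran lower in Treg-depleted libraries, and the part of either list was not tested.

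**Figure D5:**
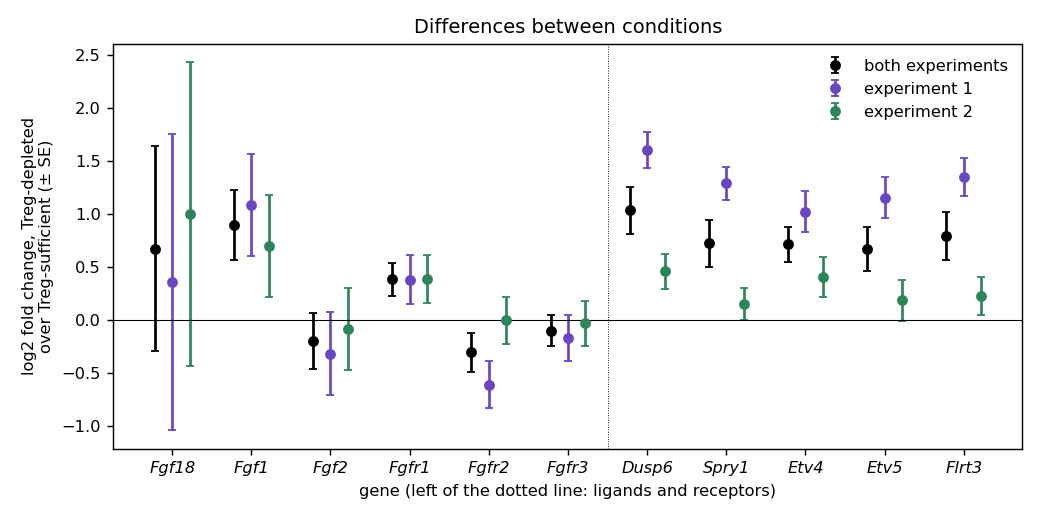
Log2 fold change, Treg-depleted over Treg-sufficient, with bars of 1 SE, for 6 members (left of the dotted line) and 5 genes of the pathway (right), over both experiments and within each. Fgf18 has the widest bars, Fgfr1 sits at 0.38 in all 3 estimates, and Dusp6, Spry1, Etv5 and Flrt3 are higher in experiment 1 than in experiment 2.

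Of 17 other FGF ligands, 3 could be tested, Fgf11, Fgf13 and Fgf21, and 0 passed the adjusted threshold between conditions, with 1 higher at an unadjusted p under 0.05 (3.07% of all genes). Fgf7 and Fgf10, the dermal papilla ligands, were at most 0.378 and 0.416 CPM. Fgf11, an intracellular FGF, was at 8.16, 13.2, 4.73 and 4.98 CPM in Treg-sufficient and at 25.1, 12.1, 9.97 and 6.78 CPM in Treg-depleted replicates 1 to 4. Its highest library was Treg-depleted replicate 1, as for Fgf1, and the conditions overlapped (log2 fold change 0.80, SE 0.27, adjusted p = 0.693). Fgf21, an endocrine ligand, was at 0 to 0.847 CPM (log2 fold change -0.93, SE 0.80, adjusted p = 0.803).

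Of the other receptors and co-receptors 7 could be tested, 4 with positive and 3 with negative fold changes, and 0 passed between conditions, with a median log2 fold change of 0.18 against -0.012 over all genes tested. Flrt3, a membrane protein known to bind FGF receptors, was at 182, 199, 175 and 186 CPM in Treg-sufficient and at 554, 415, 193 and 228 CPM in Treg-depleted replicates 1 to 4. The Treg-sufficient libraries were almost level, and the excess of the Treg-depleted ones lay in experiment 1. The value of Flrt3 over both experiments was 0.79 (SE 0.23, adjusted p = 0.693). Flrt3 rose within experiment 1 (log2 fold change 1.35, SE 0.18, adjusted p = 0.0263, edgeR), the only gene of this list to pass there (0.687% of all genes). This call ended on leaving out any single library other than Treg-depleted replicates 1 and 2, with adjusted p of 0.0645 to 0.174 at 1.31 to 1.41. For Fgfbp3, a carrier of secreted FGFs, the value was 0.39 (SE 0.23, adjusted p = 0.739), and Fgfbp1, another carrier, was at 25.2 ± 7.30 RPKM (SD, n = 8).

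All 19 genes of heparan sulfate carriers and enzymes were tested, 8 with positive and 11 with negative fold changes, and 0 passed between conditions, with 2 at an unadjusted p under 0.05 (6.99% of all genes). Sdc1 and Sdc4, syndecans of the cell surface, had the highest levels, 189 ± 47.9 and 143 ± 37.3 RPKM (SD, n = 8). The log2 fold change of Sdc4 was 0.42 (SE 0.14, unadjusted p = 0.0150, adjusted p = 0.693) and that of the glypican Gpc1 -0.38 (SE 0.11, unadjusted p = 0.0087, adjusted p = 0.693). Gpc1, named here for its small p, was at 101 to 107 CPM in Treg-sufficient and 67.7 to 93.0 CPM in Treg-depleted libraries. The conditions did not overlap, as for 2.36% of all genes. The 17 adaptors and transducers, 5 with positive and 12 with negative fold changes, held 0 genes that passed and 0 at an unadjusted p under 0.05 in edgeR, with a median of -0.045. Mapk3, which encodes an ERK kinase, was at 82.6 ± 6.19 RPKM (SD, n = 8), and Shc1 and Hras, with the smallest p, had log2 fold changes of 0.19 (SE 0.11) and -0.19 (SE 0.15).

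The feedback inhibitors and ETS targets of the pathway had mostly positive fold changes. Of 12 tested genes, 11 had a positive fold change between conditions, 0 passed the adjusted threshold and 6 were higher at an unadjusted p under 0.05 (3.07% of all genes), with a median log2 fold change of 0.57 against -0.012 over all genes. Within experiment 1, 3 rose (Dusp6, Spry1 and Etv5), where 0.687% of all genes passed in either direction. The median there was 0.77 against -0.010 over all genes. Within experiment 2, 0 passed (0% of all genes) and all 12 had a positive fold change. The median was then 0.21 against -0.0015 over all genes. The list was chosen with earlier results of these data known, so these counts are no independent support. As background, these genes respond to many receptor tyrosine kinases besides the FGF receptors.

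Dusp6, the ERK phosphatase, was at 134, 115, 139 and 156 CPM in Treg-sufficient and at 336, 422, 195 and 210 CPM in Treg-depleted replicates 1 to 4. All Treg-depleted libraries were higher than all Treg-sufficient ones, those of experiment 1 most (for 2.36% of all genes the conditions did not overlap, in either direction). Its log2 fold change was 1.03 over both experiments (SE 0.23, adjusted p = 0.693, edgeR), 1.60 within experiment 1 (SE 0.17, adjusted p = 0.0127) and 0.46 within experiment 2 (SE 0.16, adjusted p = 1). The difference between the experiments did not pass (adjusted p = 0.315). Without Treg-sufficient replicate 1 or 2 the call within experiment 1 ended, at 1.74 (adjusted p = 0.0513) and 1.50 (adjusted p = 0.0720).

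Spry1, a Sprouty inhibitor, was at 25.5, 29.6, 22.3 and 21.4 CPM in Treg-sufficient and at 71.4, 62.9, 24.5 and 23.9 CPM in Treg-depleted replicates 1 to 4, so the Treg-depleted libraries of experiment 1 stood apart from the other 6. It rose by 1.29 log2 units within experiment 1 (SE 0.16, adjusted p = 0.0219, edgeR). Etv5, an ETS factor, was at 54.2 to 61.6 CPM in Treg-sufficient libraries and at 145, 112, 56.0 and 75.4 CPM in Treg-depleted replicates 1 to 4, with the same high pair, and rose by 1.15 log2 units within experiment 1 (SE 0.19, adjusted p = 0.0485). The call of Spry1 ended on leaving out any single library other than Treg-depleted replicates 1 and 2 (adjusted p 0.0560 to 0.144), and that of Etv5 any other than Treg-depleted replicate 2 (adjusted p 0.0702 to 0.299). Etv4, a second ETS factor, was at 78.1 to 98.1 CPM in Treg-sufficient and 107 to 187 CPM in Treg-depleted libraries, without overlap (2.36% of all genes). Its log2 fold change was 0.71 (SE 0.16, unadjusted p = 0.0019, adjusted p = 0.693, edgeR). Of the 2 Treg-depleted libraries of experiment 1, in which Dusp6, Spry1 and Etv5 were highest, Fgf18 was low in replicate 1 and highest of all in replicate 2. Fgf1 and Fgfr1 were highest in replicate 1. A relation between the levels of these members and of the targets was not tested.

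Around Fgf18 and Fgf5 in the hair cycle, 8 regulators of stem cell quiescence were tested, and 0 passed between conditions, with 2 at an unadjusted p under 0.05 (6.99% of all genes). Foxp1, a forkhead factor known to act upstream of Fgf18, was at 128, 153, 90.5 and 95.9 CPM in Treg-sufficient and at 179, 180, 109 and 81.5 CPM in Treg-depleted replicates 1 to 4. All experiment 1 libraries were above all experiment 2 libraries (for 12.7% of all genes the experiments did not overlap, in either direction). Foxp1 fell by 0.75 log2 units from experiment 1 to experiment 2 (SE 0.13, adjusted p = 0.0449, edgeR), a call that ended on leaving out any single library other than Treg-sufficient replicate 1 (adjusted p 0.0603 to 0.140). Foxp1 was nearly equal in Treg-depleted replicates 1 and 2, where Fgf18 was at 6.68 and 48.8 CPM, and its relation to Fgf18 was not tested. Between conditions its log2 fold change was 0.19 (SE 0.13, adjusted p = 0.758). On the same scale Bmp4, a bone morphogenetic protein, was at -2.07 (SE 0.57, unadjusted p = 0.0056) and Foxc1, a forkhead factor, at 0.38 (SE 0.12, unadjusted p = 0.0090), both with adjusted p = 0.693. Lhx2 and Nfatc1, factors of bulge stem cells, were at 88.0 ± 21.2 and 20.8 ± 4.15 RPKM (SD, n = 8).

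Of 7 catagen factors 0 passed between conditions, with 2 at an unadjusted p under 0.05 (6.99% of all genes). Tgfb2, a growth factor of catagen, was at 7.57 to 9.40 CPM in Treg-sufficient and 2.93 to 7.03 CPM in Treg-depleted libraries, without overlap (2.36% of all genes). The difference was -0.84 log2 units (SE 0.22, adjusted p = 0.693, edgeR). Ngfr, the low-affinity neurotrophin receptor, differed by 0.70 log2 units (SE 0.24, adjusted p = 0.694). Tgfbr1 and Tgfbr2, the receptors of the TGF-beta ligands, were at 12.9 ± 0.858 and 11.8 ± 1.33 RPKM (SD, n = 8).

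All 8 genes of the anagen matrix had negative fold changes between conditions, 0 passed and 6 were lower at an unadjusted p under 0.05 (3.92% of all genes). Their median log2 fold change was -0.86 against -0.012 over all genes. This list too was chosen with earlier results of these data known. Krt35, a hair cortex keratin, was at 10.2, 4.27, 31.6 and 22.3 CPM in Treg-sufficient and at 0.204, 0, 10.1 and 6.11 CPM in Treg-depleted replicates 1 to 4. Its conditions did not overlap within either experiment, in the same direction, as for 6.88% of all genes. In both experiments the Treg-depleted libraries were the lower ones, and the fall within experiment 1 passed (adjusted p = 0.0280, edgeR), a call that ended on leaving out any single library other than Treg-sufficient replicate 2 and Treg-depleted replicate 2 (adjusted p 0.0501 to 0.0939). Shh, the hedgehog ligand of the matrix, and Dlx3, a hair differentiation factor, rose from experiment 1 to experiment 2 by 1.62 (SE 0.31, adjusted p = 0.0486) and 2.14 log2 units (SE 0.36, adjusted p = 0.0449). Both calls ended on leaving out any single library other than Treg-sufficient replicate 1 (adjusted p 0.0597 to 0.156). Between conditions the log2 fold changes of Dlx3, Shh and the homeobox gene Msx2 were -1.60 (SE 0.35), -1.26 (SE 0.31) and -0.78 (SE 0.18), each with adjusted p = 0.693, and Hoxc13 was at 26.2 ± 4.87 RPKM (SD, n = 8). Beside these values, the sum of 5 inner root sheath markers, another product of the anagen follicle, ran from 37.9 to 342 CPM in Treg-sufficient and from 31.6 to 154 CPM in Treg-depleted libraries, and its part in them was not tested.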

How the data were processed

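RNA of sorted Lgr5-traced cells was sequenced in 8 libraries, and the authors deposited a table of raw read counts per gene without normalization. Per the labels' protocols, RNA was isolated on spin columns and libraries were made with a kit that selects mRNA and keeps the strand. The build was GRCm38.p4 and TopHat2 (version 2), SAMtools, HTSeq and DESeq2 were used, per the submitters' processing notes. The sources used here do not give what each tool did, the strand setting or the release of the annotation. The table held 46078 genes and 5 tallies of reads given to no gene (37.9 to 43.7% of reads), which were left out. The largest tally, reads aligned to several places, was 26.2 to 30.6%, so such reads count for no gene.

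Symbols, coordinates and exon lengths came from GENCODE M21 (GRCm38), which paired 45143 identifiers with a symbol. Tests used edgeR 4.0.16 in R 4.3.3 (TMM factors, filterByExpr with minimum count 10 on the 4 groups of condition and experiment, quasi-likelihood F-test, Benjamini-Hochberg adjustment over 17748 genes, threshold 0.05). Condition and experiment were terms of the first model (5 residual degrees of freedom). A model of 4 groups (4 residual degrees of freedom) gave effects within experiments and their difference, the interaction. CPM are on TMM-scaled library sizes, and RPKM are those CPM per kilobase of the union of annotated exons. Patterns were compared with a pseudocount of 0.5 CPM. The steps were also run on simulated data, whose outcome is not given here, so the power of the tests is not stated. With 22330729 to 29975347 counts per library, counting error was largest for Fgf5 and Fgf22. Fgf18 had 50 counts in Treg-sufficient replicate 4 and 74 in Treg-depleted replicate 4.

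The members and the gene lists were chosen with earlier results of these data known, so no list is independent support. Named were all members, and of each list the genes passing the adjusted threshold in any comparison, the 2 with the smallest p between conditions and the 2 with the highest mean RPKM. For members of at least 1 CPM the 3 genes of most similar pattern were found. Some genes that these rules name are not reported here. Libraries of both conditions share a letter in their titles. Same-letter libraries correlated at 0.152 to 0.350 in their deviations from the condition means, but at -0.138 and -0.148 within experiments. Beyond the experiment, already in the model, no positive pairing by letter was seen. With 2 libraries per condition and experiment this check gives 1 value per experiment, so it cannot exclude a pairing. Alternatives were RLE and upper-quartile factors, no filter, DESeq2 1.42.0, a replicate block, no experiment term, the average of the effects within experiments, and leaving out each library or both libraries with Xist reads.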

Additional observations from a re-analysis of the deposited data

Results flagged for a closer look

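Within a condition, 4 values stood apart from the other 3 by Dixon's criterion (gap to the nearest value over the whole range), out of 76 groups checked over 38 genes. Chance flags about 1 in 20 groups. Fgf5 in Treg-sufficient replicate 4 was at 1.40 CPM, high beside the other 3 libraries of its condition, on 42 counts. Fgf2 in Treg-sufficient replicate 3 was at 30.2 CPM, also high. Fgfr1 in Treg-depleted replicate 1 was at 902 CPM, high, the same library in which Fgf1 was highest. Etv4 in Treg-sufficient replicate 2 was at 78.1 CPM, low beside the other 3. The spread of Fgf18 met no such criterion, since each of its groups held high and low libraries in equal number.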

How the results depend on the processing

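Members kept their direction and their side of the threshold in 275 of 301 alternatives, passed the threshold only under the alternative in 13 and reversed in 13; other named genes did so in 392 of 461, with 51 calls lost, 18 gained and 0 reversed. Without both libraries with Xist reads, the log2 fold change between conditions was -0.064 for Fgf18 and 0.014 for Fgfr3. Fgfr2 within experiment 2 changed sign around 0, at 0.024 with upper-quartile factors, 0.014 with no filter and 1.111e-05 without those libraries. Leaving out each library in turn gave -0.34 to 1.45 for Fgf18, -0.38 to 0.020 for Fgf2 and -0.23 to 0.031 for Fgfr3 between conditions, and -0.16 to 0.18 for Fgfr2 within experiment 2.

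Counts of genes called depended strongly on the tool and the filter. Between conditions, edgeR called 0 genes, but 820 with no filter (339 higher and 481 lower) and DESeq2 87 (51 higher and 36 lower). With no filter Fgf18 (adjusted p = 0.0136) and Fgf1 (adjusted p = 7.66e-08) passed between conditions, Fgf1 (adjusted p = 4.128e-06) and Fgfr2 (adjusted p = 0.0385) within experiment 1, Fgf18 (adjusted p = 0.0329) within experiment 2 and 5 members between experiments. In that fit the SE of Fgf18 between conditions was 0.19, against 0.97 with the filter and RLE factors. These p-values thus do not carry the wide gaps between paired libraries given above for Fgf18. Within experiment 1 the count of 122 became 1152 with no filter, 722 in DESeq2 and 511 without the libraries with Xist reads. Within experiment 2 the count of 0 became 132 with no filter and 3 in DESeq2. For the interaction 0 became 534 with no filter, 181 in DESeq2 and 138 without the libraries with Xist reads. Between experiments 277 became 2443 with no filter, 2164 in DESeq2 and 3 without the libraries with Xist reads. Leaving out each library gave 0 to 1 calls between conditions, 16 to 453 within experiment 1, 0 to 0 within experiment 2, 0 to 15 for the interaction and 0 to 684 between experiments. The causes were not tested. With a replicate block of the title's letter, 0 genes were called and 763 had an unadjusted p under 0.05 against 1240 without it. Members passing the adjusted threshold were 0 with and without the block, and those at an unadjusted p under 0.05 were 0 with it. Fgf1 was then at 0.76 (unadjusted p = 0.0542, edgeR) and Fgfr1 at 0.38 (unadjusted p = 0.0734, edgeR). A crossed replicate block, chosen after seeing the data, called 0 genes. Counting error was largest for Fgf5 and Fgf22.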
